A study of Mus musculus with 4 samples.

Results

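Notch signalling was followed in mouse embryonic stem cells (ESCs) through 10 genes, which are the receptors Notch1, Notch2, Notch3 and Notch4, the ligands Dll1, Dll4, Jag1 and Jag2, and the target genes Hes1 and Hey1. They were chosen by gene symbol, and all 10 were found among the 24421 genes of the count files and were among the 19891 genes tested. The samples were 4 Illumina TruSeq libraries from R1, an established mouse ESC line with no engineered allele named in the labels, with 2 replicates of the undifferentiated state (Undiff) and 2 of the differentiated state (Day4). Undiff is described in the methods as ESCs kept with leukaemia inhibitory factor (LIF), a cytokine that maintains pluripotency, whereas the labels describe embryoid bodies, which are floating aggregates of ESCs, after 4 days in growth medium. Day4 is embryoid bodies grown for 4 days without LIF and then treated for 4 days with retinoic acid (RA), the signalling form of vitamin A, at 2 µM by the series description and 2 mM by the sample labels. The states thus differ in LIF, in culture time and in RA, and by the methods also in growth as aggregates. The parts of these differences cannot be told apart, and a Day4 culture without RA was not analysed here. The replicates were separate cultures of 1 line.

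Notch receptors are cut when a ligand of the Delta or Jagged family on a neighbouring cell pulls on them. The released intracellular part enters the nucleus, joins the DNA-binding protein Rbpj and a Mastermind coactivator, and turns on target genes of the Hes and Hey families, which encode transcriptional repressors. The pathway is known for keeping neural progenitors from differentiating, for the choice between tip and stalk cells in growing vessels, and for the maturation of the mural cells that wrap them.

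The sequences before the start sites of the 4 receptors and of Dll4, the ligand with the largest change, are shown because the receptors, genes of 1 family, moved in different directions. They are 5′ to 3′ on the strand of the gene, from RefSeq on GRCm38.p6, and leave out exons of the gene. The stretch of Notch1 lies before its RefSeq start but inside the gene as GENCODE vM21 gives it (chr2:26457903-26516663), which begins farther upstream. Capitals mark the GC box GGGCGG or, on the other strand, CCGCCC.
Notch1 (chr2:26503825-26503972, minus strand): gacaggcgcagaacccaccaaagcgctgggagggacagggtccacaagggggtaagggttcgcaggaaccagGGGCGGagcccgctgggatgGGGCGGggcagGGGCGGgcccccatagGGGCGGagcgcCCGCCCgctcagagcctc
Notch2 (chr3:98013388-98013526, plus strand): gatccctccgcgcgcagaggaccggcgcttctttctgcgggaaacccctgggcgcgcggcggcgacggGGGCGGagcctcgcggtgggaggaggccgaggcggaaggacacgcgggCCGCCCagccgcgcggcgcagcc
Notch3 (chr17:32166891-32167040, minus strand): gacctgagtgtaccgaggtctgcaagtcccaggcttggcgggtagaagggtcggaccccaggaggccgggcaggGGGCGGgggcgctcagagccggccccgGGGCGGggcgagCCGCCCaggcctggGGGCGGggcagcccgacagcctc
Notch4 (chr17:34564145-34564267, plus strand): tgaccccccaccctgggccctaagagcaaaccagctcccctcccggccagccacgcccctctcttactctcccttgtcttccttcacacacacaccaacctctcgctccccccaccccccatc
Dll4 (chr2:119325634-119325783, plus strand): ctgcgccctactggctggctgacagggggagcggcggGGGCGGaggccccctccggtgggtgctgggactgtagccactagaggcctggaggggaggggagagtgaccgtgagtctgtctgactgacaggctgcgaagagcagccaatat
The GC box, the site of Sp1-family factors, was found 5 times in the stretch of Notch1, 2 times in that of Notch2, 4 times in that of Notch3 and 1 time in that of Dll4, with none in that of Notch4. Over windows of 300 bases, from 250 bases before the start site to 50 after it, 5 of the 9 windows of the 8 members with one (Dll1 has 2) held the box, those of Notch1, Notch2, Notch3, Dll4 and Jag2, and 35.7% of the 32851 windows of all genes held it. The whole windows held 7 boxes for Notch2, 5 each for Notch1 and Jag2, 4 for Notch3, 2 for Dll4 and 0 for Notch4. Notch1, which was lower in Day4, and Notch2 and Notch3, which were higher, all carried the box. The core site of Rbpj, GTGGGAA on either strand, was in 0 of the 9 windows of the members and in 6.38% of all windows. It was found in 7 of the 56 windows of the other pathway genes, which were those of Lfng, Hey2, Hes5, Hes7, Aph1a, Psen2 and Spen. The site of Lfng, which fell, and 1 of the 2 sites of Hey2, which rose, are shown in capitals. The site shown for Hey2 is the one farther from its start and reads TTCCCAC on the strand of the gene.
Lfng (chr5:140607211-140607250, plus strand): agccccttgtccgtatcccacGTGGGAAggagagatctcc
Hey2 (chr10:30842970-30843009, minus strand): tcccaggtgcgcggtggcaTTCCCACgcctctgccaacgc
A match of letters is a description of the window and no evidence of binding. Windows for Hes1 and Hey1 were not used here.

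Of the 10 genes, 5 rose, 4 fell and 1 had a small difference between the states (Notch4), where a differentially expressed gene (DEG) had an adjusted p-value of 0.05 or below, a log2 fold change of 1 or more in either direction and 5 or more normalized counts on average. These thresholds were passed by 42.8% of all genes tested, with 22.2% higher and 20.6% lower in Day4, so that DEGs were common in this comparison. All 10 members had 5 or more normalized counts on average. Of the 19891 genes tested, 16472 did, and the 8521 DEGs are all among them. The share of DEGs among genes with enough counts to pass was therefore above 42.8%. For 10 of the 10 genes the Day4 libraries lay wholly above or wholly below the Undiff libraries, as for 85.4% of all genes tested. The 85.4% also covers genes with fewer than 5 normalized counts on average. The median log2 fold change of Day4 over Undiff was 0.68 for the 10 genes and -0.03 for all genes tested. It was 0.03 for the genes with 5 or more normalized counts on average. Each p-value is from the quasi-likelihood test of edgeR, adjusted by Benjamini-Hochberg over all genes tested, and normalized counts are fragment counts scaled by TMM to a common library size. With 2 libraries in each state, no two-sided exact permutation test of a single gene can give a p below 0.333.

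**Figure D1:**
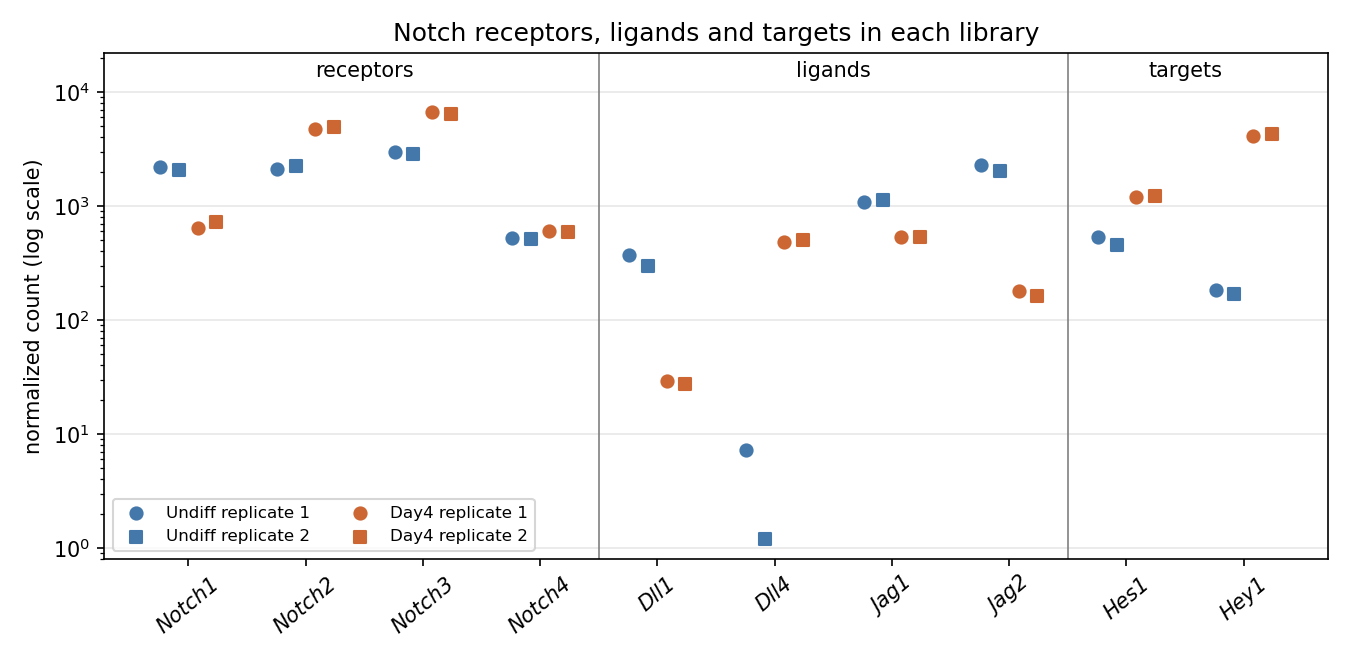
Normalized counts (log axis) of the 4 receptors, 4 ligands and 2 targets in the 2 Undiff (blue) and 2 Day4 (orange) libraries, with circles for replicate 1 and squares for replicate 2. Replicates lie close together except for Dll4 in Undiff, at 7.29 and 1.20, and the states do not overlap for any of the 10 genes.

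The Undiff libraries had high levels of ESC markers and the Day4 libraries had little. All 10 ESC markers on the list, among them Pou5f1, Nanog and Sox2, were lower in Day4. Their summed level was 5003 and 5031 CPM (counts scaled to a fixed library total, adjusted by TMM) in Undiff against 26.7 and 21.1 CPM in Day4. The libraries held between 32099074 and 47730944 fragments on genes. A floor of 3 counts, which covers counting error only, therefore stood at 0.0629 to 0.0935 CPM, taken without the TMM adjustment. In libraries of whole cultures, fewer cells of a type and less RNA per cell cannot be told apart. Of 10 endothelial markers, 8 were higher in Day4, while Pecam1 and Tek were lower. The summed level of the 10 was 182 to 185 CPM in Undiff and 370 to 375 CPM in Day4. Most of the Undiff sum was Pecam1, at 5264 and 5138 normalized counts in Undiff and 2269 and 2279 in Day4. Of 8 markers of mural and smooth muscle cells, 4 were higher and none lower, with sums of 90.8 to 97.3 CPM in Undiff and 238 to 287 CPM in Day4. The other 4 were not DEGs, with log2 fold changes of 0.09 for Tagln, 0.24 for Myh11, 0.44 for Cspg4 and 0.56 for Cnn1. Acta2 was the highest of the 8 in Day4, at 3093 and 4068 normalized counts, from 682 and 538 in Undiff. Of 10 neural markers, 4 were higher, among them Dcx, Nes and Neurog1, and 5 lower (Tubb3, Stmn2, Pax6, Sox3 and Sox1), and their sum was 316 to 325 CPM in Undiff and 162 to 172 CPM in Day4. In each Undiff library 4 neural markers were at the floor, among them Dcx, Neurog1 and Neurog2. The part of these cell types in the results on Notch genes was not tested.

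Of the 4 ligands, 1 was higher and 3 were lower in Day4. Dll4, a Delta ligand prominent in arterial and tip endothelial cells, had 7.29 and 1.20 normalized counts in Undiff replicates 1 and 2, from 7 and 1 fragments, and 484 and 501 in Day4 replicates 1 and 2. Day4 was therefore far above both Undiff libraries, which were at or near the floor. The ratio of the means, 492.5 ± 12.5 over 4.25 ± 4.31 (SD, n = 2), was 116, with a 95% counting interval of 56.0 to 257, and the log2 fold change was 6.75 (SE 0.24, adjusted p = 1.5e-11). The size rests on the Undiff libraries, since it was 8.55 without Undiff replicate 1 and 6.06 without Undiff replicate 2. Only 2.78% of the genes tested had a larger absolute log2 fold change. Dll4 shares 214 exon bases with Gm14207, which had 2 and 2 fragments in Undiff and 14 and 19 in Day4. On the endothelial list, 8 of 10 markers rose and 2 fell in the same comparison, with log2 fold changes of -1.19 for Pecam1 and -1.02 for Tek, and their part in the rise of Dll4 was not tested.

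Jag2, a Jagged ligand, moved the other way. It had 2277 and 2029 normalized counts in the Undiff libraries and 180 and 163 in the Day4 libraries, a 12.6-fold lower mean in Day4. The log2 fold change was -3.66 (SE 0.09, adjusted p = 2.8e-13), and the fall was many times the spread of the replicates. Dll1, the Delta ligand of early neural and somite development, had 374 and 300 normalized counts in Undiff and 29.2 and 27.6 in Day4, so that the states were well apart. Its mean was 11.9-fold lower in Day4 (log2 fold change -3.58, SE 0.18, adjusted p = 5.7e-10). Jag1, the Jagged ligand also used by endothelium and smooth muscle, fell least. It had 1087 and 1140 normalized counts in Undiff and 530 and 535 in Day4 (log2 fold change -1.06, SE 0.07, adjusted p = 5.2e-09). Its fall lies at the threshold, and with library totals in place of TMM it was -0.996 and just short of it.

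Of the 4 receptors, 2 were higher and 1 was lower in Day4. Notch1, the receptor of broadest use in the embryo, had 2191 and 2059 normalized counts in the Undiff libraries and 641 and 726 in the Day4 libraries. Both Day4 values lay below both Undiff values, the mean was 3.11-fold lower, and the log2 fold change was -1.63 (SE 0.07, adjusted p = 7.1e-11). Notch2 had 2123 and 2244 normalized counts in Undiff and 4732 and 4930 in Day4. Notch3, the receptor characteristic of mural cells, had 2997 and 2887 in Undiff and 6682 and 6400 in Day4. These receptors rose by nearly the same factor, with log2 fold changes of 1.15 (SE 0.05, adjusted p = 1e-10) for Notch2 and 1.15 (SE 0.05, adjusted p = 4.9e-11) for Notch3. Notch4, a receptor largely of endothelium, had 521 and 511 normalized counts in Undiff and 603 and 590 in Day4. The groups did not overlap, but the ratio was 1.16 (log2 fold change 0.21, SE 0.07, adjusted p = 0.022), which is under the fold threshold and smaller than the change of 90.0% of the genes tested. Over the alternative settings the adjusted p of Notch4 ran from 0.00505 to 0.256.

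**Figure D2:**
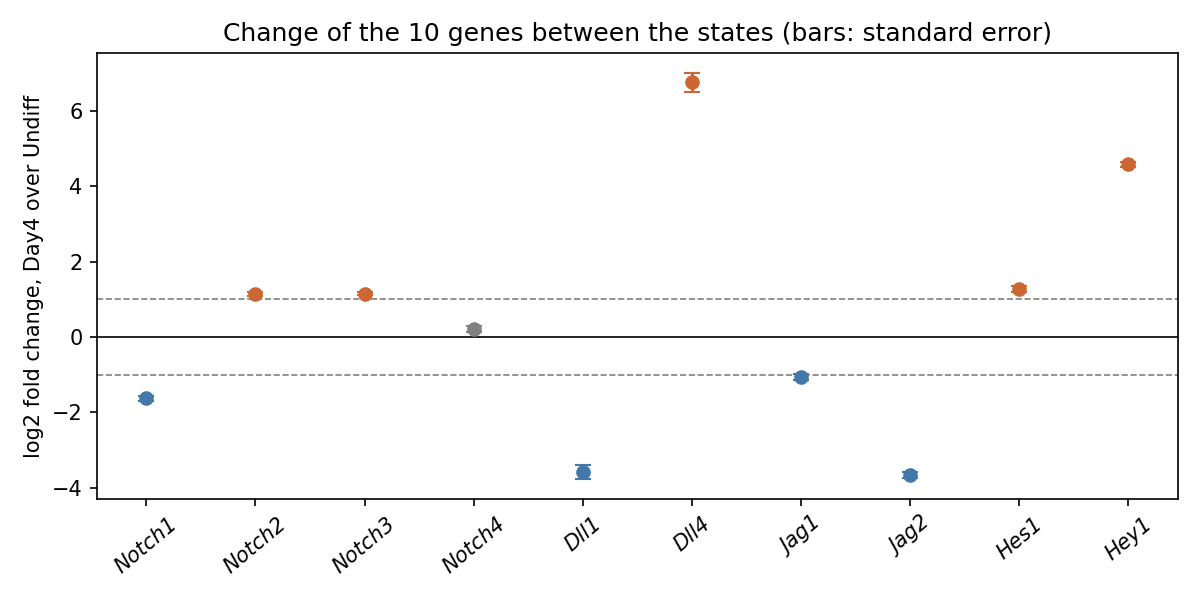
Log2 fold change of Day4 over Undiff for each gene, with bars of 1 standard error, dashed lines at the fold threshold, and orange, blue and grey for higher, lower and neither. Dll4 (6.75) and Hey1 (4.58) stand highest, Jag2 (-3.66) and Dll1 (-3.58) lowest, and Notch4 (0.21) lies between the dashed lines.

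Both target genes rose. Hes1, a repressor that answers to Notch and to other signals, had 530 and 456 normalized counts in the Undiff libraries and 1190 and 1212 in the Day4 libraries, which all lay above Undiff. The log2 fold change was 1.28 (SE 0.08, adjusted p = 2.9e-09). Hey1, a target characteristic of vessels and heart, rose much further. Its normalized counts were 182 and 170 in Undiff and 4141 and 4296 in Day4, a 23.9-fold higher mean with a log2 fold change of 4.58 (SE 0.07, adjusted p = 6.2e-15), and 9.13% of the genes tested had a larger absolute log2 fold change.

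Levels of different genes were compared as CPM per kb of exon, since longer transcripts yield more fragments. The summed level of the 4 receptors was 20.99 and 20.65 CPM per kb in Undiff and 37.0 and 36.7 in Day4, a 1.77-fold increase of the mean. The summed level of the 4 ligands was 16.1 and 14.9 CPM per kb in Undiff and 6.66 and 6.73 in Day4, a 2.32-fold lower mean. Receptor over ligand level thus went from 1.34 ± 0.0586 (SD, n = 2) in Undiff to 5.50 ± 0.0766 (SD, n = 2) in Day4. These are sums of RNA levels, given as a description without a test.

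Among the receptors in Undiff, the order of the levels was Notch3 (9.72 ± 0.256 CPM per kb, SD, n = 2), Notch2 (5.41 ± 0.212), Notch1 (3.99 ± 0.174) and Notch4 (1.71 ± 0.0237), and no neighbours in it overlapped between libraries. In Day4 Notch3 (21.6 ± 0.659) and Notch2 (12.0 ± 0.346) still led, but Notch4 (1.98 ± 0.0289) then stood above Notch1 (1.28 ± 0.113). Notch1 made up 19.1% ± 0.613 of the receptor level in Undiff and 3.49% ± 0.328 in Day4 (SD, n = 2), whereas Notch3 went from 46.7% to 58.6% and Notch2 from 26.0% to 32.5%. The order of Notch1 and Notch2 in Undiff depends on the length used. With the longest transcript in place of all exons, Notch1 took 25.5% and Notch2 23.7% in Undiff.

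The leading ligand differed between the states, while Jag1 was the next highest in both and Dll1 stayed below Jag1 and Jag2. In Undiff, Jag2 (8.26 ± 0.672 CPM per kb, SD, n = 2) led, followed by Jag1 (5.11 ± 0.173), Dll1 (2.13 ± 0.330) and Dll4 (0.0294 ± 0.0299). In Day4, Dll4 (3.42 ± 0.0868) came first, ahead of Jag1 (2.44 ± 0.0179), Jag2 (0.657 ± 0.0458) and Dll1 (0.180 ± 0.00720). No neighbours in either order overlapped between libraries. Dll4 thus rose from 0.314% and 0.0556% of the ligand level in the Undiff libraries to 50.4% and 51.7% in the Day4 libraries, and Jag2 went from 54.1% and 52.2% to 10.4% and 9.28%. Jag1 fell in level but took a similar share of the ligand RNA in both states, at 30.9% and 35.0% in Undiff and 36.5% in both Day4 libraries.

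**Figure D3:**
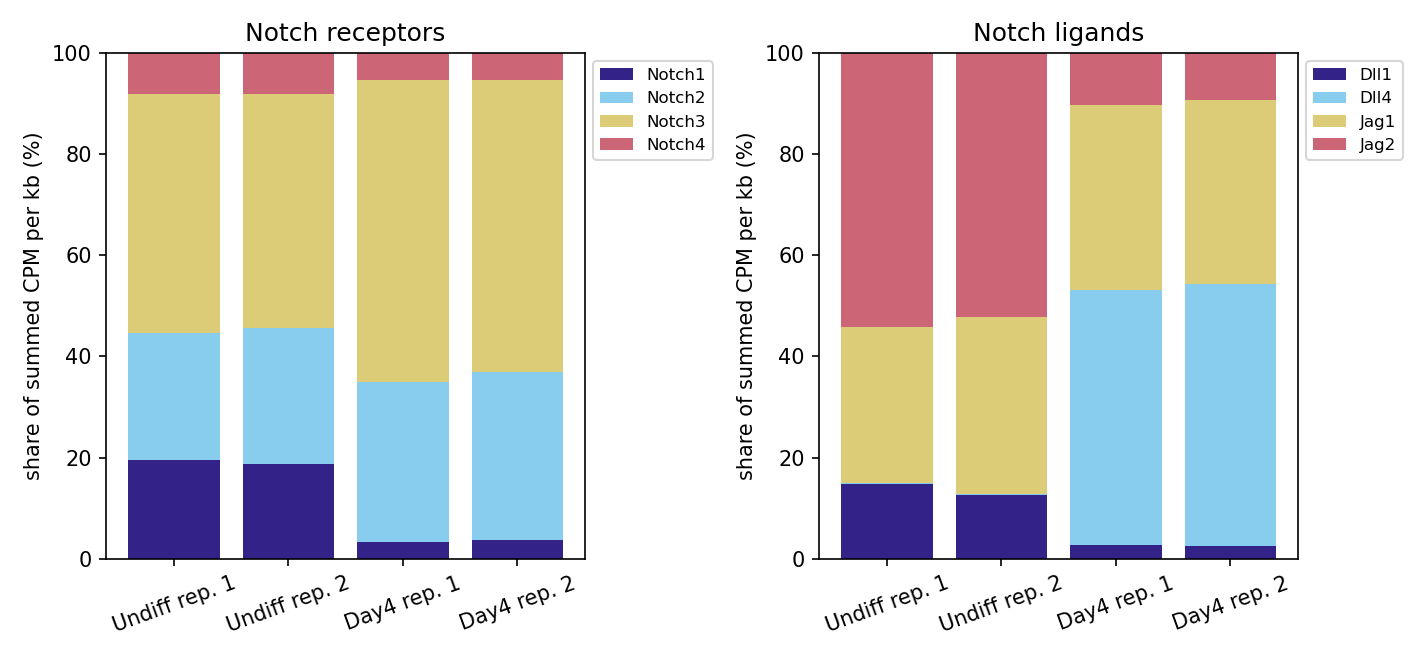
Share of each gene in the summed CPM per kb of the 4 receptors (left) and the 4 ligands (right), as stacked bars for each of the 4 libraries. Notch3 holds the largest receptor share throughout and Notch1 shrinks to 3.25% and 3.72% in Day4, while the main ligand is Jag2 in Undiff and Dll4 in Day4.

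Of 52 other genes of the pathway, 18 were higher and 10 lower in Day4, against 22.2% and 20.6% of all genes tested. All 52 had 5 or more normalized counts on average, as a DEG must. The shares among all genes with that many counts are higher than 22.2% and 20.6%. The other 24 were not DEGs, and 15 of these had an adjusted p at or below 0.05 with a smaller fold. The median log2 fold change of the 52 genes was 0.46, against -0.03 for all genes tested and 0.03 for those with 5 or more normalized counts on average. Of the 52, 49 had no overlap between the states, as for 85.4% of all genes tested. Among 4 further ligands, Dlk1, a non-canonical ligand imprinted in the mouse, rose from 295 and 290 normalized counts to 25233 and 22951, a log2 fold change of 6.36 (SE 0.07, adjusted p = 3.3e-16). Dll3, a Delta protein that does not activate receptors on neighbouring cells, fell from 386 and 391 to 26.1 and 21.5, a log2 fold change of -4.04 (SE 0.16, adjusted p = 3.2e-11). Dner, a neuronal ligand-like protein, had a log2 fold change of -2.99 (SE 0.34, adjusted p = 2.8e-06), with -3.77 without Day4 replicate 1 and -2.37 without Day4 replicate 2. The falling Dll1 and Dll3 and the rising Dll4 are all of the Delta family.

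Of 4 ubiquitin ligases that drive the endocytosis of ligands, 2 rose and none fell. Neurl1b rose by 1.63 (SE 0.20, adjusted p = 5.6e-06) on the log2 scale. Mib1, the main one for Delta and Jagged ligands in mammals, had 1566 and 1496 normalized counts in Undiff and 3127 and 3089 in Day4, a log2 fold change of 1.02 (SE 0.05, adjusted p = 4.6e-10), which fell just under the threshold in 6 of 12 alternatives. Of 5 enzymes that place sugars on the receptors, Pofut1, which adds O-fucose, rose by 1.89 (SE 0.05, adjusted p = 1.3e-12). The fringe enzymes Lfng and Mfng, which extend that fucose and alter the response to Delta and Jagged ligands, fell. Lfng had 255 and 251 normalized counts in Undiff and 87.7 and 89.8 in Day4, a log2 fold change of -1.51 (SE 0.13, adjusted p = 1.2e-07), and Mfng fell by 1.495 on the log2 scale (SE 0.09, adjusted p = 4.5e-09).

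Of 10 genes for receptor cleavage, 3 rose and none fell. These were Aph1b, a γ-secretase subunit, with a log2 fold change of 3.52 (SE 0.12, adjusted p = 1e-11), Adam10, the protease of the ligand-induced cut, with 2.02 (SE 0.05, adjusted p = 2.8e-13), and Furin, which processes the receptor during its export, with 1.60 (SE 0.07, adjusted p = 7.1e-11). In the nuclear complex, the DNA-binding partner and the coactivators moved apart. Rbpj had 10626 and 11272 normalized counts in Undiff and 3960 and 4082 in Day4, a 2.72-fold lower mean and a log2 fold change of -1.44 (SE 0.05, adjusted p = 4e-12). All 3 Mastermind genes rose, with log2 fold changes of 5.15 (SE 0.12, adjusted p = 1.8e-13) for Maml3, 3.39 (SE 0.13, adjusted p = 2e-11) for Maml2 and 1.89 (SE 0.05, adjusted p = 7.7e-13) for Maml1. Maml3 had 32.3 normalized counts in each Undiff library and 1126 and 1167 in the Day4 libraries.

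Of 7 corepressors of Rbpj, 3 rose and 1 fell. L3mbtl3 (2.35, SE 0.08, adjusted p = 8.4e-12) and Ctbp1 (2.13, SE 0.05, adjusted p = 2.7e-13) rose on the log2 scale, and Ctbp2 fell by 2.32 (SE 0.05, adjusted p = 7.6e-14), so that the C-terminal binding proteins 1 and 2 moved in opposite directions. Among 10 genes of turnover and inhibition, 3 rose and 2 fell. Dtx1, a Deltex ubiquitin ligase, fell from 644 and 571 normalized counts to 60.6 and 54.5, a log2 fold change of -3.41 (SE 0.13, adjusted p = 2.1e-11). Its paralogue Dtx4 rose from 494 and 401 to 3229 and 3383, a log2 fold change of 2.88 (SE 0.08, adjusted p = 8.7e-13), and Dtx3l fell by 1.96 (SE 0.08, adjusted p = 7.8e-11).

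Hes1 and Hey1 rose, but the other genes on the target list did not all move with them. These 8 genes were listed as Hes and Hey family members, with Nrarp, and their dependence on Notch was not tested. Of the 8, 2 rose, 2 fell and 4 were not DEGs. Heyl, a Hey gene known from smooth muscle and vessels, had 2 and 3 fragments in Undiff and 373 and 547 in Day4, a ratio of normalized means of 143 with a 95% counting interval of 62.4 to 451. Hey2 rose from 30.2 and 37.1 normalized counts to 181 and 164, a log2 fold change of 2.35 (SE 0.19, adjusted p = 6.7e-08). Hey1, Hey2 and Heyl were therefore all higher in Day4.

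The Hes genes differed among themselves. Hes2 had 53 and 40 fragments in Undiff and 1 and 1 in Day4, and Hes3, known from neural progenitors, had 23 and 29 in Undiff and 1 and 0 in Day4. The ratio of Day4 over Undiff was 0.0176 for Hes2 (95% counting interval 0.00204 to 0.0635) and 0.0178 for Hes3 (0.000380 to 0.0890), with adjusted p = 8.5e-08 and 7.4e-06. Without Day4 replicate 1 the log2 fold change of Hes3 was -7.91, and without Day4 replicate 2 it was -4.65. Hes5, the classical Notch target of neural progenitors, was low throughout, with 9.38 and 12.0 normalized counts in Undiff and 6.27 and 3.07 in Day4, and its log2 fold change of -1.23 (SE 0.58) did not pass (adjusted p = 0.069). It was -1.75 with an adjusted p of 0.0483 without Day4 replicate 1, and -0.77 without Day4 replicate 2, so that its call rests on 1 library. Nrarp, a direct target that feeds back on the pathway, had 127 and 123 normalized counts in Undiff and 104 and 104 in Day4, a log2 fold change of -0.27 (SE 0.15) that did not pass (adjusted p = 0.11). Exons of Nrarp overlap a gene on the other strand over 2051 of 2582 bases, and those of Hes5 over 433 of 1363. The overlapping genes are not among the symbols of the count files. Whether fragments of the other strand were added to the counts of Nrarp and Hes5 is uncertain. The difference itself between the Hey and the Hes genes was not tested.

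**Figure D4:**
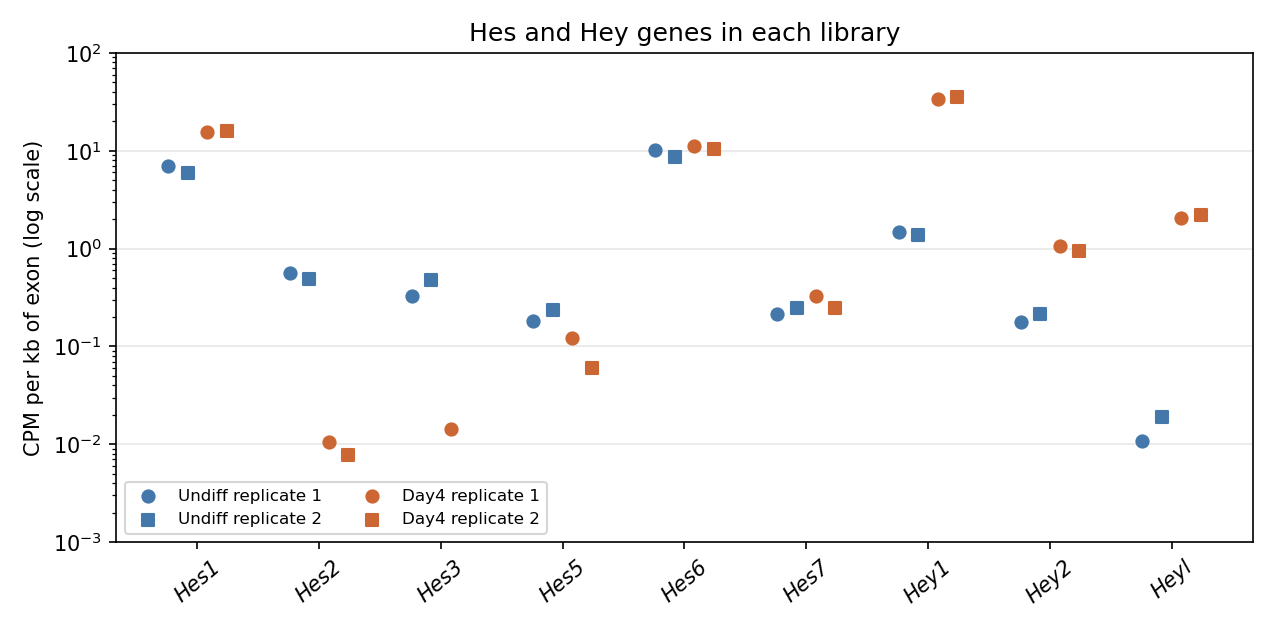
Level in CPM per kb of exon (log axis) of 6 Hes and 3 Hey genes in the 2 Undiff (blue) and 2 Day4 (orange) libraries; Hes3 in Day4 replicate 2 had 0 fragments and has no point. All 3 Hey genes and Hes1 are higher in Day4, Hes2 and Hes3 are lower, and Hes6 and Hes7, with log2 fold changes of 0.21 and 0.29, lie close together in the states.

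Per kb of exon, Hey1 was the most abundant of these genes in Day4, at 34.5 ± 0.896 CPM per kb (SD, n = 2), ahead of Hes1 at 15.7 ± 0.209. In Undiff the order of this pair was the reverse, with Hes1 at 6.47 ± 0.691 and Hey1 at 1.44 ± 0.0721 CPM per kb.

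On GRCm38 the members lie as follows in GENCODE vM21, as protein-coding genes whose counts come from exons. Notch1 (chr2:26457903-26516663), Dll4 (chr2:119325784-119335962) and Jag1 (chr2:137081456-137116644) are on chromosome 2. Notch3 (chr17:32120820-32166852), Notch4 (chr17:34564268-34588503) and Dll1 (chr17:15367354-15376872) are on chromosome 17. Notch2 (chr3:98013527-98150361) and Hey1 (chr3:8663359-8667256) are on chromosome 3, Jag2 (chr12:112907819-112929776) on chromosome 12 and Hes1 (chr16:30064384-30067796) on chromosome 16. Exons of Notch1, Notch3 and Dll1 overlap genes on the other strand over 1482, 488 and 867 bases, and exons of Notch2 overlap a gene on the same strand over 541 bases. These overlapping genes are not among the symbols of the count files. Fragments of the gene overlapping Notch2 may thus be among those of Notch2. The methods name the Direct RNA samples as counted by strand and do not print the option for counting TruSeq fragments on genes. Whether fragments of the other strand were added to the counts of Notch1, Notch3 and Dll1 is therefore uncertain.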

How the data were processed

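RNA of 2 Undiff and 2 Day4 cultures was sequenced on the Illumina platform. Per the labels and methods, the authors used cutadapt for trimming and STAR 2.4.2a for alignment to mm10, and counted uniquely aligned fragments on genes with htseq-count; the deposited values are raw counts per gene symbol. Fragments that fell on no gene were left out. They made up 12.09% and 13.25% in the Undiff libraries and 7.497% and 7.745% in the Day4 libraries, so that this share differed between the states. The labels name a ribosomal depletion kit beside the poly(A) kit of the methods.

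Counts were tested with edgeR 4.0.16 (TMM, glmQLFit, glmQLFTest, no replicate term) in R 4.3.3 on the 19891 genes counted in at least 1 library, with p-values adjusted by Benjamini-Hochberg and the thresholds of the study. The standard error is the absolute log2 fold change over the root of F. The biological coefficient of variation was 3.66%. Replicates differed beyond sampling noise (chi-square per degree of freedom 5.71 in Undiff and 3.07 in Day4). The test was checked on simulated counts. CPM per kb uses TMM and the union of GENCODE vM21 exons.

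The members, pathway lists and marker lists were chosen with earlier results of these data known. All members were named. Of each other list, up to 3 DEGs with the largest log2 fold change were named, and Rbpj, Nrarp, Lfng and Hes5 always; Hes6 and Hes7 are named as part of the Hes family. Some of the markers that went against their list or were at the floor were named, and not all of those at the floor. Acta2 and the mural and smooth muscle markers that were not DEGs were also named. Pou5f1, Nanog and Sox2 were added after their values were seen. The values of a few listed genes are not reported here. Promoter windows were from RefSeq. The alternatives were DESeq2 1.42.0 with and without shrinkage, its size factors or library totals in edgeR, filterByExpr, a replicate block, thinned libraries, no minimum fold change, each library left out, and the longest transcript for lengths. The earlier quasi-likelihood method of edgeR was added after seeing the data.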

Additional observations from a re-analysis of the deposited data

How the results depend on the processing

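None of the members, nor of the pathway genes taken by the rule for named genes, reversed direction under the alternatives run for it; marker genes, Hes6 and Hes7 were not run singly under them. The count of DEGs among the members was 9 with the replicate block, and that of the other pathway genes 28, and the block changed no call of theirs. The deviations of same-numbered libraries did not correlate (r = -0.01 over 16472 genes). With 2 libraries in each state, this cannot tell whether same-numbered cultures were handled together. Without a minimum fold change, 14309 genes in all and 43 other pathway genes were called. With library totals, Jag1 had a log2 fold change of -0.9963 and was not called. Mib1 lost its call in 6 of 12 alternatives. With library totals Ncstn was called, without Undiff replicate 1 Aph1a, and without Day4 replicate 1 Hes5. With the longest transcript in place of all exons, the shares in Undiff were 25.5% for Notch1, 23.7% for Notch2, 41.8% for Notch3, 8.92% for Notch4, 27.8% for Jag1 and 58.9% for Jag2. In Day4 they were 5.01% for Notch1, 56.7% for Notch3, 6.29% for Notch4, 2.97% for Dll1, 49.1% for Dll4, 35.4% for Jag1 and 12.5% for Jag2. The median of the genes with 5 or more normalized counts on average moved by at most 0.0666 on the log2 scale with any scaling. Dll4, Heyl, Hes2 and Hes3 had few fragments in 1 state, which limits the precision of their ratios.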
